A study of Mus musculus with 9 samples.

Results

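The comparison described here sets GATA2 R396Q against GATA2 wild type in mouse blood progenitors. Its members are the 3 arrays of cells given GATA2 R396Q and the 3 arrays of cells given GATA2 wild type, chosen by their titles, so 6 of the 9 arrays of the series. The other 3 arrays, of cells given the empty vector, serve as the baseline measured in the same way. All 21072 transcript clusters of the array entered the comparison, a cluster being the set of probes summarised as 1 gene or transcript unit.

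Every group came from female C57BL/6 mice of 8 weeks that received 5-fluorouracil at 150 mg/kg, 6 days before the marrow was taken. Lineage-negative, Sca+ and Kit+ cells were enriched from that marrow on magnetic columns, and 100000 cells per condition were exposed to retrovirus on 2 consecutive days. The viruses carried no GATA2 (the empty EGFP vector, called MIE), GATA2 wild type or GATA2 R396Q. Cells positive for GFP were sorted after 72 h of culture, and their total RNA was hybridised. All 3 groups thus share the drug, the virus backbone, the culture and the sort. The cells kept their own Gata2 gene, GATA2 was driven from the virus and not from its own promoter, and the species of the cDNA is not stated. It is not stated whether separate mice or separate infections gave the 3 replicates of a group, so every p-value measures only the spread between these arrays, which may be technical.

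GATA2 is a zinc finger transcription factor that binds GATA sequences in DNA and is needed for the upkeep of blood stem and progenitor cells. It also acts in mast cells and megakaryocytes, and in the red cell lineage it gives way to its relative GATA1 as cells mature. R396Q replaces an arginine with a glutamine in the C-terminal zinc finger, the one that contacts DNA, and variants of this finger are known from inherited GATA2 deficiency.

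The labels give the cell type as HSC (blood stem cells) and the tissue as blood, although the growth protocol describes marrow. Of 8 stem and progenitor markers, 7 were measured, and 5 of these lay above the array median with R396Q, 4 with wild type and 5 with the empty vector. Their summed level (log2) was 11.64 to 12.29 with wild type, 13.26 to 13.30 with R396Q and 13.78 to 14.14 with the empty vector. With R396Q 2 of the 7 were higher than with wild type and 1 was lower. Neutrophil and mast cell markers were also bright in every group: all 8 mast cell markers lay above the array median in each, as did all 8 neutrophil markers with R396Q and the empty vector and 7 of 8 with wild type. Of 6 measured lymphoid markers only 1, the T cell marker Cd3e, lay below the lower quartile of the arrays (4.54 to 4.60 on the log2 scale) in both GATA2 groups. In each group 2 of the 6 lay above the array median. Among 8 stromal and endothelial markers, Cdh5, Kdr and Dcn lay below the lower quartile with R396Q, and 1 lay above the array median. With wild type Cdh5 and Kdr lay below the lower quartile and 3 markers above the median. The summed level of the 6 measured erythroid markers was 13.1 to 13.7 (log2) with wild type and 7.97 to 8.44 with R396Q, next to 7.94 to 8.51 with the empty vector, and 5 of the 6 fell. The 6 measured megakaryocyte markers summed to 16.1 to 16.3 with wild type and 13.2 to 14.1 with R396Q, and 4 fell. Mast cell markers summed to 17.99 to 18.8 and 17.6 to 17.8, with 5 of 8 lower, and neutrophil markers to 12.97 to 15.7 and 16.5 to 18.4, with 2 of 8 higher. Monocyte markers overlapped between the forms (10.4 to 15.2 and 13.1 to 16.01), and none of 7 passed the test. The part of these marker levels in the gene groups of other lineages was not tested. In such bulk RNA fewer cells of a type and less RNA per cell cannot be told apart. That limit holds for every gene group below.

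Against wild type, GATA2 R396Q changed 1211 of the 21072 clusters at an adjusted p under 0.05 (5.75%). Of these, 563 were higher with R396Q (2.67%) and 648 were lower (3.08%). The test was limma's moderated test over all 9 arrays, with Benjamini-Hochberg adjustment over all clusters. The falls were the larger changes. Among the called clusters, 337 fell by more than 2-fold and 236 rose by more than 2-fold, and beyond 16-fold there were 22 falls and 14 rises. The median over all clusters was 0.00 log2 units. With the replicate number as a block, 2750 clusters were called (13.1%), 1497 higher (7.1%) and 1253 lower (5.95%), and 1182 of the 1211 kept their call. In 4347 clusters (20.6%) the 3 R396Q arrays and the 3 wild type arrays did not overlap, and 3720 of the 21072 had an unadjusted p under 0.05. Shares of all clusters are the background for each list count below: 2.67% higher and 3.08% lower, and 7.1% and 5.95% with the block. Leaving out R396Q array 1, 2 or 3 reduced the 1211 calls to 650, 702 or 788, and 527 clusters stayed called with each of the 9 arrays left out in turn. For background, wild type differed from the empty vector in 1894 clusters (8.99%) and R396Q differed from it in 259 (1.23%). These 2 baselines share arrays with the main comparison and are printed beside it only as values.

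**Figure D1:**
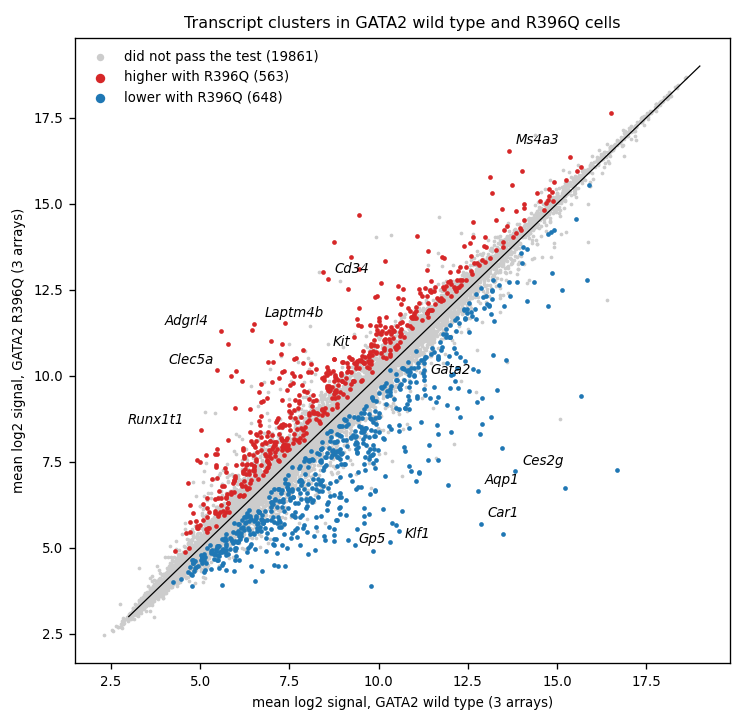
Mean log2 signal of each transcript cluster with GATA2 wild type (x axis) and GATA2 R396Q (y axis), 3 arrays each, with the line of equality. Red points (563) were higher and blue points (648) lower with R396Q at an adjusted p under 0.05. Car1, Ces2g, Aqp1, Klf1 and Gp5 lie far below the line, and Adgrl4, Clec5a, Laptm4b and Cd34 far above it.

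The level of Gata2 itself came first, since both groups were given it. The 3 values of a group are printed throughout as log2 signal in the order of replicate 1, 2 and 3. Gata2 measured 11.50, 11.24 and 10.94 with wild type, 10.65, 10.72 and 10.53 with R396Q, and 9.87, 9.67 and 9.65 with the empty vector. The lowest wild type array lay above the highest R396Q array, and the lowest R396Q array above the highest empty vector array. The difference of -0.59 (SE 0.14, 1.51-fold) did not pass the test (adjusted p = 0.0633), and with the replicate block it did (adjusted p = 0.0222). Both GATA2 groups exceeded the empty vector, by 1.49 with wild type (adjusted p = 0.0016) and by 0.90 with R396Q (adjusted p = 0.0394). Whether the cluster's probes read the virus transcript, the cells' own transcript or both is not stated. The part that this lower signal has in the differences below was not tested.

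Many red cell genes were lower with R396Q. Among 25 measured genes of the red cell membrane and skeleton, 18 fell and none rose, against 3.08% of all clusters that fell. Their median change was -2.25, and 23 of 25 lay below 0. Among 20 erythroid regulators 7 fell and none rose (median -0.67), and among 18 heme synthesis genes 6 fell and none rose (median -0.88). On the same scale, the membrane genes had a median of 2.05 for wild type over the empty vector and of -0.05 for R396Q over the empty vector, comparisons that share arrays with this one.

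The regulators that fell include the central factors of red cell formation. Klf1, a zinc finger factor that drives globin and red cell membrane genes, measured 11.34, 9.86 and 10.27 with wild type and 6.12, 5.43 and 5.48 with R396Q. The R396Q arrays lay at the level of the empty vector (6.12, 5.49 and 5.73). Klf1 fell by 4.81 (SE 0.40, 28.1-fold, adjusted p = 0.00147). Gfi1b, a repressor needed for red cells and platelets, measured 14.01, 13.02 and 13.67 with wild type and 10.17, 10.49 and 10.68 with R396Q, a change of -3.12 (SE 0.29, 8.69-fold, adjusted p = 0.00214). Its R396Q arrays stayed above all 3 empty vector arrays (9.12, 9.10 and 9.71).

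Epor, the erythropoietin receptor, measured 8.98, 8.39 and 9.26 with wild type and 6.31, 5.91 and 6.25 with R396Q, and fell by 2.72 (SE 0.25, adjusted p = 0.0021). Zfpm1, which encodes the GATA partner FOG1, fell by 2.30 (SE 0.22, adjusted p = 0.00244). Gata1 measured 6.73, 6.29 and 6.75 with wild type and 5.55, 5.46 and 5.41 with R396Q, and fell by 1.11 (SE 0.13, adjusted p = 0.00473). These 5 genes kept their calls with each of the 9 arrays left out in turn. Under the replicate block 11 of the 20 regulators were lower and 2 were higher. Nfe2, a factor of platelet and red cell genes named here after its values were seen, stood at 10.05, 9.90 and 10.26 with wild type and 10.20, 9.99 and 10.11 with R396Q, a difference of 0.03 with a 95% interval of -0.30 to 0.35.

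RefSeq promoters of 4 of the genes that moved are shown to let the reader see which of them hold a GATA motif. They were picked after the motif search: a red cell factor, a red cell receptor, a platelet gene and a stem cell gene that rose. Each run is the 250 bases before the annotated start, 5′ to 3′ on the gene's strand, in build GRCm38.p6, and capitals mark GATAA or its reverse complement TTATC.
Klf1, chr8:84901732-84901981, plus strand: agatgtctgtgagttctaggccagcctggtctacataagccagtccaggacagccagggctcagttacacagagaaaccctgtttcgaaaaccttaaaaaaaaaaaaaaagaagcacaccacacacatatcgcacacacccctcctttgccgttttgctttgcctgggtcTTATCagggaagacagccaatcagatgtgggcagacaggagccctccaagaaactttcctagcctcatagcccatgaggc
Epor, chr9:21963577-21963826, minus strand: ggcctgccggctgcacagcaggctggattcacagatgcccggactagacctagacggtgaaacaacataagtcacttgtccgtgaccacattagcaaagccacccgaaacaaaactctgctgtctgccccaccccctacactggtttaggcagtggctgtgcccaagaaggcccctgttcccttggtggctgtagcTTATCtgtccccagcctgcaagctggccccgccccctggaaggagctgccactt
Gp5, chr16:30310782-30311031, minus strand: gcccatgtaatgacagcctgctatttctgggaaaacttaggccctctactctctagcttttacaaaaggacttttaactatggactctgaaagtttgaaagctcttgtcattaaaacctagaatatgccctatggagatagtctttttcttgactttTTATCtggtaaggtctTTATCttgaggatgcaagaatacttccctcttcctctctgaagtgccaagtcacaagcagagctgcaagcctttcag
Cd34, chr1:194938571-194938820, plus strand: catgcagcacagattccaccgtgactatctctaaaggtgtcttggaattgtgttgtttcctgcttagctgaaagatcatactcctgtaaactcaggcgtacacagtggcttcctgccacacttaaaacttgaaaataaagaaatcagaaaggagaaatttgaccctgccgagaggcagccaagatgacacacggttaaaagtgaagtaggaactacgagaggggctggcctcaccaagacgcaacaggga
The Klf1 window held 1 GATAA, that of Epor held 1 and that of Gp5 held 2, and Cd34 had no match. The match in Epor and both matches in Gp5 were the longer AGATAA, which contains GATAA.

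Motif shares were also counted across genes, with no test. The search covered 300 bases, 250 before to 50 after the start, on both strands, in 17160 promoters of 13920 tested genes. GATAA was found in 21.4% of 639 promoters of genes that were lower with R396Q, in 17.5% of 537 promoters of genes that were higher, and in 21.1% of all promoters. For AGATAA the shares were 10.2%, 6.33% and 9.18% in the same order. For CACCC, the core of the motif of KLF factors, they were 66.2%, 64.4% and 61.2%. A match is a description of the letters, and windows of this length leave out distant enhancers.

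Globin genes share clusters, because their copies are near-identical, and fall outside the rule for named genes. They are given as values chosen after they were seen. Of the 2 clusters for Hba-a1 and Hba-a2, the alpha globins, the brighter measured 16.92, 16.08 and 17.02 with wild type and 7.46, 6.77 and 7.54 with R396Q, near the empty vector's 7.26, 6.31 and 6.94. It fell by 9.42 (SE 0.36, 684-fold, adjusted p = 0.000102), beyond every cluster with 1 symbol. Of the 2 adult beta globin clusters, the brighter measured 16.24, 14.79 and 15.99 with wild type, 10.31, 8.44 and 9.48 with R396Q and 11.75, 8.72 and 11.36 with the empty vector. It fell by 6.26 (SE 0.90, adjusted p = 0.0101), and the dimmer fell by 4.28 (SE 0.49, adjusted p = 0.00428). All adult globin clusters were thus separated between the 2 GATA2 forms by more than their spread. Of 6 globin genes with a cluster of their own, 2 fell and none rose (median -1.27). Hbb-y, an embryonic globin, fell by 5.09 (SE 0.79, adjusted p = 0.0132). The count of 2 became 4 without wild type array 2, 1 without wild type array 1 or 3 or R396Q array 3, and 0 without R396Q array 1 or 2.

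Heme, the iron carrier of globin, is made by a chain of enzymes of which several were lower. Cpox, a late step of the chain, measured 12.79, 12.55 and 12.94 with wild type and 9.32, 9.17 and 9.21 with R396Q, a change of -3.53 (SE 0.10, 11.6-fold, adjusted p = 4.15e-05). Its R396Q arrays lay below all 3 empty vector arrays (9.78, 9.88 and 9.78). Alad, an early step, fell by 1.99 (SE 0.27, adjusted p = 0.00874), and Uros, the step after the linear tetrapyrrole is made, by 0.47 (SE 0.07, adjusted p = 0.011). The porphyrin transporter Abcb6 fell by 2.15 (SE 0.24, adjusted p = 0.00401) and the biliverdin reductase Blvrb by 2.32 (SE 0.22, adjusted p = 0.0021). In the blocked fit 11 heme genes were lower and 2 were higher, and the 5 genes named here kept their calls with each array left out.

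Iron handling did not move as a group: of 20 genes 2 fell, 1 rose and the median change was 0.02. Steap3, the endosomal reductase that frees iron for red cell precursors, measured 8.35, 8.23 and 8.33 with wild type and 6.27, 6.40 and 6.77 with R396Q, and fell by 1.82 (SE 0.20, adjusted p = 0.00356). Slc11a2, the iron carrier beside it, fell by 1.48 (SE 0.23, adjusted p = 0.0132), a call lost without wild type array 1 or R396Q array 1, either of which leaves 1 gene of this list lower. Fbxl5, an iron sensor, rose by 0.37 (SE 0.06, adjusted p = 0.0157), a call lost without any 1 of the 3 R396Q arrays. The replicate block gave 5 higher and 3 lower. The transferrin receptor gene Tfrc, named after its values were seen, differed by -0.27 with a 95% interval of -1.54 to 1.00.

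In the membrane and skeleton list, which also holds the soluble carbonic anhydrases Car1 and Car2, Car1 had the largest fall among clusters with 1 symbol. It measured 12.97, 12.73 and 12.87 with wild type and 6.34, 5.51 and 5.23 with R396Q, next to 6.12, 5.00 and 5.70 with the empty vector. The change was -7.16 (SE 0.36, 143-fold, adjusted p = 0.000231). Aqp1, the water channel, measured 13.43, 11.57 and 13.36 with wild type and 7.17, 6.62 and 6.16 with R396Q, a change of -6.14 (SE 0.54, 70.3-fold, adjusted p = 0.00177). For both genes the forms were separated by more than 4 log2 units on every array.

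Mfsd2b, the sphingosine phosphate exporter of red cells, measured 11.18, 11.11 and 11.09 with wild type and 7.48, 7.15 and 7.00 with R396Q (change -3.92, SE 0.15, adjusted p = 0.000102). Icam4, a blood group adhesion molecule, measured 11.10, 10.98 and 10.44 against 7.56, 7.50 and 7.07 (change -3.46, SE 0.20, adjusted p = 0.000409). Car2, another carbonic anhydrase, fell by 3.73 (SE 0.22, adjusted p = 0.000435). Cldn13, a claudin, fell by 5.88 (SE 0.34, adjusted p = 0.000416), and its R396Q mean lay below the lower quartile of the arrays, so its level there cannot be told from background. Rhag, an ammonium channel of the Rh complex, fell by 4.25 (SE 0.46, adjusted p = 0.00348). All 7 of these genes of the list kept their calls with each array left out in turn.

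**Figure D2:**
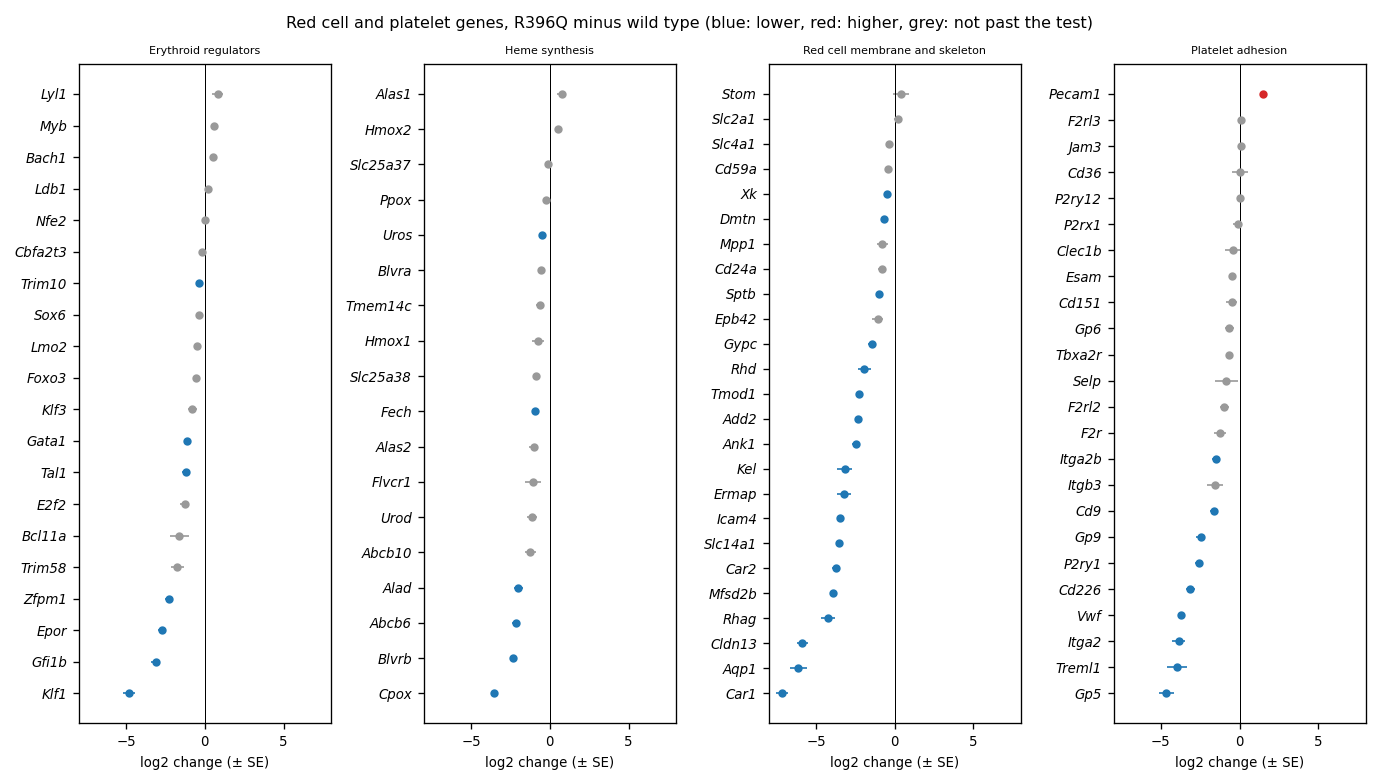
Change in log2 signal, R396Q minus wild type, with its standard error, for each measured member of 4 lists (erythroid regulators, heme synthesis, red cell membrane and skeleton, platelet adhesion). Blue points were lower and red points higher at an adjusted p under 0.05, and grey points did not pass. Only Pecam1 is red, at 1.48.

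Platelet genes were among those that fell. Among 24 measured platelet adhesion genes 9 fell and 1 rose, with a median of -0.92. Among 21 platelet granule and signaling genes 7 fell and none rose, with a median of -0.69. The medians for wild type over the empty vector were 1.94 and 1.04, and those for R396Q over the empty vector were -0.06 and 0.13, again with shared arrays.

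Gp5, a part of the receptor for von Willebrand factor, measured 10.72, 10.00 and 10.37 with wild type and 6.50, 5.35 and 5.29 with R396Q, and fell by 4.65 (SE 0.46, 25.1-fold, adjusted p = 0.00257). Vwf, which encodes von Willebrand factor itself, measured 9.74, 9.54 and 9.91 with wild type and 6.24, 5.84 and 5.88 with R396Q, and fell by 3.74 (SE 0.17, 13.4-fold, adjusted p = 0.000155). Both genes with R396Q lay in or below the empty vector's range. Cd226, an adhesion receptor, fell by 3.13 (SE 0.30, adjusted p = 0.00223), P2ry1, an ADP receptor, by 2.60 (SE 0.26, adjusted p = 0.00253), and Itga2, the collagen receptor chain, by 3.88 (SE 0.44, adjusted p = 0.00404).

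Itga2b, the integrin chain that defines megakaryocytes, fell part of the way. It measured 11.94, 11.79 and 11.99 with wild type, 10.43, 10.27 and 10.44 with R396Q and 9.02, 8.73 and 9.69 with the empty vector, so the 3 groups did not overlap. Its change was -1.52 (SE 0.22, adjusted p = 0.0112). Pecam1, an adhesion molecule also found on other blood cells and named after its values were seen, went the other way: it measured 10.30, 10.47 and 9.88 with wild type and 11.85, 11.71 and 11.55 with R396Q, a rise of 1.48 (SE 0.18, adjusted p = 0.00541). Itga2b and the 6 other genes of this list given here kept their calls with each array left out in turn.

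In the granule and signaling list, Gucy1b1, a subunit of the nitric oxide receptor, measured 7.69, 7.59 and 8.70 with wild type and 5.57, 5.29 and 5.54 with R396Q, and fell by 2.53 (SE 0.29, adjusted p = 0.0045). Rap1b, a small GTPase of integrin activation, fell by 0.34 (SE 0.05, adjusted p = 0.0088) from a bright level, with no overlap between 15.55 to 15.56 and 15.86 to 15.92. These 2 kept their calls with each array left out. The list is less stable than the adhesion list. Its 7 falls became 3 without wild type array 1 or 3, 2 without wild type array 2, 2 without R396Q array 2 and 4 without R396Q array 3. Ppbp and Pf4, platelet chemokines, fell by 5.54 (SE 1.00, adjusted p = 0.0235) and 3.06 (SE 0.51, adjusted p = 0.0168), calls lost without any 1 of the 3 wild type arrays or R396Q array 2, and for Pf4 also without R396Q array 3. P2rx1, the platelet ATP channel named after its values were seen, was close in both forms, at 11.54, 10.96 and 10.65 with wild type and 11.00, 11.28 and 10.48 with R396Q. It differed by -0.13 with a 95% interval of -0.82 to 0.55, while the empty vector stood at 7.84, 7.49 and 8.00.

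Mast cell and basophil genes split between the forms. Of 27 measured genes 8 fell and 3 rose, and the median change was -0.48. The alpha and beta chains of the high affinity IgE receptor fell. Ms4a2, its beta chain, was named after its values were seen. It measured 12.64, 12.69 and 12.61 with wild type, 10.14, 10.37 and 10.10 with R396Q and 10.37, 8.89 and 9.79 with the empty vector, a fall of 2.44 (SE 0.33, adjusted p = 0.00849). Fcer1a, its alpha chain, fell by 4.35 (SE 0.67, 20.3-fold, adjusted p = 0.0132), a call lost without wild type array 1 or R396Q array 1 or 3.

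Hdc, the enzyme that makes histamine, measured 14.88, 14.63 and 14.75 with wild type, 12.40, 12.05 and 11.62 with R396Q and 10.76, 10.07 and 11.00 with the empty vector. Its R396Q arrays thus lay between the other groups without overlap. Hdc fell by 2.73 (SE 0.28, 6.65-fold, adjusted p = 0.00283). Slc18a2, which loads histamine into granules and was added on seeing its values, had the same order of groups, 11.94 to 12.43 with wild type, 10.14 to 10.29 with R396Q and 8.58 to 9.42 with the empty vector, and fell by 1.96 (SE 0.23, adjusted p = 0.00505). The cytokine gene Il13 fell by 2.14 (SE 0.18, adjusted p = 0.00165), and Cd200r3, an activating receptor of basophils and mast cells, by 4.10 (SE 0.38, 17.2-fold, adjusted p = 0.00209).

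The list's 3 rises lay elsewhere. Kit, the receptor for stem cell factor, measured 9.50, 9.42 and 9.46 with wild type, 10.58, 10.32 and 10.50 with R396Q and 12.22, 12.23 and 12.38 with the empty vector, a rise of 1.00 (SE 0.08, 2-fold, adjusted p = 0.00113). Ltc4s, leukotriene C4 synthase, was higher with R396Q than in both other groups, at 4.96, 4.85 and 4.89 against 4.32, 4.41 and 4.14 with wild type and 4.29, 4.35 and 4.25 with the empty vector. It rose by 0.61 (SE 0.07, adjusted p = 0.00492) at a dim level. Ctsg, a protease of mast cells and neutrophils that is in both lists and was also added on seeing its values, rose by 2.12 (SE 0.47, adjusted p = 0.0474), and only with wild type array 1 left out did it keep its call.

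Other mast cell genes stood at like levels in both forms, and both examples were picked with their values in view. Cpa3, the mast cell carboxypeptidase, measured 16.53, 15.87 and 16.81 with wild type and 16.38, 16.66 and 17.14 with R396Q, a difference of 0.32 with a 95% interval of -0.63 to 1.27. Il6 measured 12.24, 12.17 and 11.79 with wild type and 11.31, 12.16 and 11.88 with R396Q, next to 8.42, 8.68 and 8.60 with the empty vector, a difference of -0.28 with an interval of -0.81 to 0.25. Against the empty vector Il6 was higher by 3.50 with wild type (adjusted p = 0.000393) and by 3.22 with R396Q (adjusted p = 0.00259). A gene induced by both forms thus stood in the same list as genes near the baseline with R396Q.

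None of 13 eosinophil genes passed the test, and 3 reached an unadjusted p under 0.05, next to 3720 of all 21072 clusters. In the fit with the replicate block 1 was higher and 2 lower, next to 7.1% and 5.95% of all clusters. Epx and Prg2, both genes of eosinophil granules, varied with the replicate number. Epx, eosinophil peroxidase, measured 14.81, 14.02 and 7.24 with wild type and 14.96, 14.80 and 6.49 with R396Q, against 8.99, 6.26 and 5.86 with the empty vector. Prg2, the major basic protein gene, measured 17.04, 16.55 and 11.69 with wild type and 11.15, 10.12 and 4.92 with R396Q. Replicate 3 was the lowest in each group for both genes. Epx differed by 0.06 with a 95% interval of -6.79 to 6.91. Prg2 differed by -6.36 (SE 2.26, adjusted p = 0.195), and with the replicate block its adjusted p was 0.00999. Both were named after their values were seen. Siglecf, an eosinophil lectin, differed by -0.98 (adjusted p = 0.189, and 0.0485 with the block), and Cebpe, a granulocyte factor, by 3.30 (adjusted p = 0.135, and 0.00223 with the block).

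Enzymes of eicosanoid synthesis, which make leukotrienes, prostaglandins and related lipids, moved in both directions: of 21 genes 4 fell and 3 rose (median -0.11). Alox12, the platelet lipoxygenase, measured 10.12, 9.12 and 9.51 with wild type and 6.53, 5.76 and 5.48 with R396Q, and fell by 3.66 (SE 0.44, 12.7-fold, adjusted p = 0.0053). Alox5, which starts leukotriene synthesis, measured 14.77, 14.76 and 15.05 against 12.53, 13.04 and 13.36, and fell by 1.88 (SE 0.35, adjusted p = 0.0251), a call lost without empty vector array 1, any wild type array, or R396Q array 1 or 2. Most of these calls rest on all 9 arrays: the count of falls became 1 or 2 without empty vector array 1 or 3, any wild type array, or R396Q array 1 or 2. The count of rises became 1 without any array other than wild type array 2, and Ltc4s, given above, is the rise that kept its call with each array left out.

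**Figure D3:**
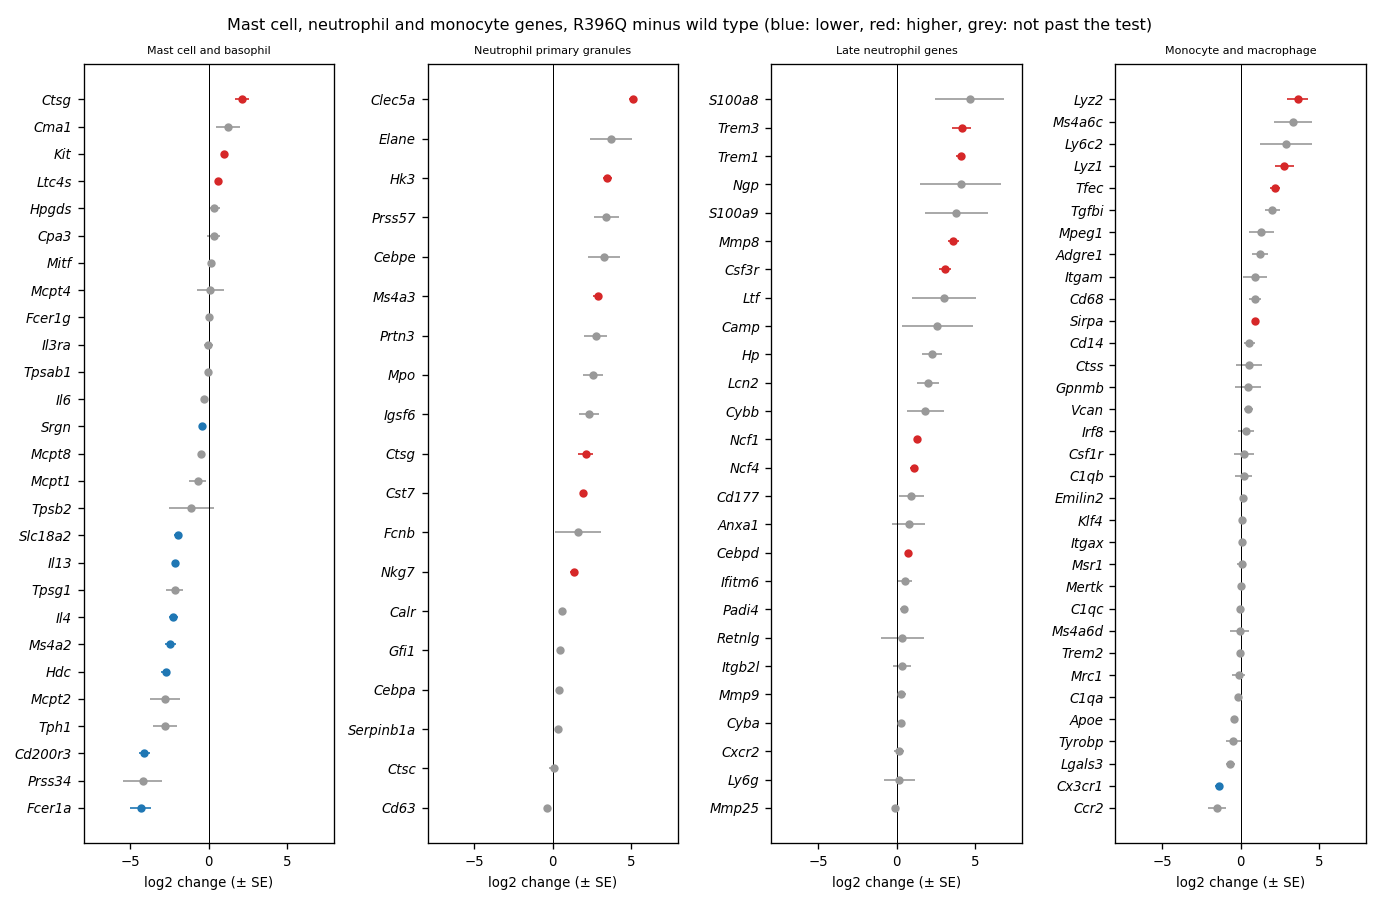
Change in log2 signal, R396Q minus wild type, with its standard error, for each measured member of 4 lists (mast cell and basophil, neutrophil primary granules, late neutrophil genes, monocyte and macrophage). Blue points were lower and red points higher at an adjusted p under 0.05, and grey points did not pass. In the neutrophil lists the called points are all red, and several grey points, such as S100a8 and Elane, lie as far right with wide errors.

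Neutrophil genes were higher with R396Q than with wild type. Of 19 genes of the primary granules and their regulators, 6 rose and none fell, against 2.67% of all clusters that rose, and 18 of 19 lay above 0 (median 2.12). Of 26 late neutrophil genes 7 rose and none fell, with 25 of 26 above 0 (median 1.21). The replicate block raised these counts to 13 and 12, with no falls. For wild type over the empty vector the medians were -2.17 and -2.01, and for R396Q over the empty vector they were 0.00 and -0.66, with shared arrays.

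Clec5a, a lectin receptor of immature neutrophils and monocytes, measured 6.15, 5.13 and 6.07 with wild type, 10.91, 10.83 and 11.05 with R396Q and 12.76, 12.64 and 13.11 with the empty vector. The 3 groups did not overlap, and R396Q lay nearer to the empty vector. Clec5a rose by 5.15 (SE 0.28, 35.4-fold, adjusted p = 0.000324). Ms4a3, a membrane protein of granulocyte and monocyte precursors, measured 13.87, 14.11 and 12.95 with wild type and 16.65, 16.61 and 16.32 with R396Q, in the range of the empty vector (16.75, 16.40 and 16.43). It rose by 2.89 (SE 0.29, 7.39-fold, adjusted p = 0.00277).

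Hk3, the hexokinase of granulocytes, measured 7.33, 6.84 and 6.50 with wild type and 10.74, 10.44 and 10.01 with R396Q, and rose by 3.51 (SE 0.28, 11.4-fold, adjusted p = 0.00123). Cst7, a cystatin that inhibits cathepsins, measured 13.99, 14.17 and 13.92 with wild type, 15.79, 15.98 and 16.07 with R396Q and 14.73, 14.68 and 14.71 with the empty vector. For Cst7, R396Q therefore exceeded both other groups, and it rose by 1.93 over wild type (SE 0.09, adjusted p = 0.000155). These 4 genes kept their calls with each array left out in turn. Nkg7, a granule membrane protein, rose by 1.40 (SE 0.25, adjusted p = 0.023), a call lost without wild type array 2 or 3 or any 1 R396Q array.

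The best known granule proteins did not pass the test without the block, and are named after their values were seen. Mpo, myeloperoxidase, measured 15.24, 15.07 and 12.83 with wild type and 17.49, 17.13 and 16.36 with R396Q, a difference of 2.61 (SE 0.64, adjusted p = 0.0701, and 0.0283 with the replicate block). Elane, neutrophil elastase, measured 11.73, 11.24 and 8.06 against 15.86, 14.90 and 11.56, a difference of 3.76 (SE 1.34, adjusted p = 0.196, and 0.0274 with the block). S100a8, a calcium-binding protein of mature neutrophils, measured 10.80, 9.22 and 4.97 against 15.09, 14.59 and 9.37, a difference of 4.69 (SE 2.20, adjusted p = 0.339, and 0.00327 with the block). Each was lowest in replicate 3 in all groups, and within each replicate number R396Q was the higher form: by 4.29, 5.36 and 4.41 for S100a8 and by 4.12, 3.66 and 3.50 for Elane.

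The late neutrophil genes that rose include receptors and a protease. Trem1, an activating receptor, measured 5.73, 5.90 and 6.42 with wild type and 10.30, 10.01 and 10.10 with R396Q, next to 11.69, 10.70 and 11.52 with the empty vector, a rise of 4.12 (SE 0.29, 17.4-fold, adjusted p = 0.000806). Csf3r, the receptor for G-CSF, measured 6.17, 5.68 and 6.05 against 9.77, 9.22 and 8.16, next to 11.46, 11.39 and 10.96, a rise of 3.08 (SE 0.39, 8.46-fold, adjusted p = 0.00661). In both genes R396Q lay between the other groups without overlap. Trem3 rose by 4.16 (SE 0.61, adjusted p = 0.0111) and Mmp8, neutrophil collagenase, by 3.63 (SE 0.35, adjusted p = 0.00244). These 4 kept their calls with each array left out in turn, whereas the count of 7 became 4 without wild type array 3 or any 1 R396Q array. Cxcr2, the receptor for neutrophil chemokines, was named after its values were seen and was close in both forms, at 11.92, 11.90 and 11.92 with wild type and 12.03, 12.40 and 11.83 with R396Q. It differed by 0.17 with a 95% interval of -0.62 to 0.96.

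Of 33 monocyte and macrophage genes 4 rose and 1 fell (median 0.22), and in the blocked fit 7 rose and 2 fell. Their median was -2.31 for wild type over the empty vector and -1.18 for R396Q over the empty vector, with shared arrays. Tfec, a transcription factor of macrophages, measured 7.72, 7.36 and 7.43 with wild type, 10.03, 10.21 and 8.95 with R396Q and 12.87, 13.22 and 13.20 with the empty vector, and rose by 2.23 (SE 0.32, adjusted p = 0.0106). It kept its call with each array left out in turn. Lyz2, lysozyme M, measured 9.42, 9.47 and 9.47 with wild type and 13.08, 12.38 and 13.84 with R396Q, and rose by 3.65 (SE 0.65, 12.5-fold, adjusted p = 0.0229), a call lost without any 1 wild type array or R396Q array 1 or 3. Cx3cr1, a chemokine receptor, fell by 1.38 (SE 0.26, adjusted p = 0.0273), a call lost without empty vector array 1, wild type array 1 or 2, or any 1 R396Q array. The count of 4 rises became 2 without empty vector array 1, wild type array 1 or R396Q array 2, and 1 without wild type array 2 or 3 or R396Q array 1 or 3.

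Mrc1, of the monocyte and macrophage list, and F13a1, of the platelet granule and signaling list, stayed low with both forms. Both were named after their values were seen. Mrc1, the mannose receptor, measured 6.70, 5.46 and 6.70 with wild type and 6.57, 5.71 and 6.19 with R396Q, next to 11.14, 10.24 and 11.33 with the empty vector. It differed between the forms by -0.13 with a 95% interval of -1.18 to 0.92. F13a1, a coagulation factor chain made by monocytes and platelets, measured 5.46, 5.46 and 5.73 with wild type and 5.74, 5.45 and 5.28 with R396Q, next to 9.53, 7.60 and 9.52 with the empty vector, a difference of -0.06 with an interval of -1.25 to 1.12. Against the empty vector Mrc1 fell by 4.62 with wild type (adjusted p = 0.00173) and by 4.75 with R396Q (adjusted p = 0.00707), and F13a1 by 3.33 (adjusted p = 0.00881) and 3.39 (adjusted p = 0.0315).

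Of 30 Fc receptors, lectins and Toll-like receptors, which sense antibodies and microbes, 3 rose and none fell (median 0.22), a count that became 1 without R396Q array 1. Under the replicate block 8 rose and 1 fell. Besides Clec5a, the list holds Fcgr2b, the inhibitory Fc receptor, which measured 12.30, 11.79 and 11.21 with wild type and 13.47, 13.45 and 13.43 with R396Q. It rose by 1.68 (SE 0.26, adjusted p = 0.0129), a call lost without R396Q array 1 or 2. Clec4e, a lectin for mycobacterial glycolipid, rose by 2.81 (SE 0.44, adjusted p = 0.0139), a call lost without wild type array 1 or R396Q array 1 or 3. Of 22 dendritic cell and antigen presentation genes 2 fell and none rose (median -0.05). Id2, a helix-loop-helix inhibitor of transcription, fell by 2.58 (SE 0.40, adjusted p = 0.0132), a call lost without R396Q array 1. Zbtb46, a dendritic cell factor, fell by 0.43 (SE 0.07, adjusted p = 0.0127), a call lost without R396Q array 2. Either loss leaves 1 gene of that list. The R396Q mean of Zbtb46 lay below the lower quartile of the arrays, so its level there cannot be told from background.

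Genes of stem and progenitor cells moved in both directions: of 25 genes 6 rose and 2 fell, and the median change was 0.10. Cd34, a surface protein of progenitors, had one of the clearest differences of the table. It measured 8.41, 8.69 and 8.65 with wild type, 12.80, 12.77 and 12.83 with R396Q and 12.94, 13.24 and 13.46 with the empty vector, and rose by 4.22 (SE 0.13, 18.6-fold, adjusted p = 5.91e-05). Sox4, a transcription factor of progenitors, measured 10.12, 10.57 and 9.85 with wild type and 13.42, 13.74 and 12.86 with R396Q, next to 12.86, 13.54 and 12.96, and rose by 3.16 (SE 0.30, 8.94-fold, adjusted p = 0.00229). With R396Q both genes were thus within 1 log2 unit of the empty vector mean.

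Cd48, which marks progenitors beyond the stem cell, measured 13.08, 13.15 and 13.12 with wild type, 15.58, 15.65 and 16.08 with R396Q and 14.23, 13.92 and 14.67 with the empty vector. It rose by 2.65 over wild type (SE 0.20, 6.3-fold, adjusted p = 0.00113) and was also above the empty vector, by 1.5 log2 units (adjusted p = 0.0233). Wild type fell below the empty vector by 1.16 (adjusted p = 0.0162), so the forms moved Cd48 in opposite directions from the baseline, in comparisons that share the empty vector arrays. Mllt3, a regulator of stem cell renewal, fell by 0.53 (SE 0.10, adjusted p = 0.0243), a call lost without wild type array 1 or 2 or any 1 R396Q array. The 2 falls became 0 without wild type array 1 or any 1 R396Q array, and 1 without any 1 of the other arrays. In the blocked fit 4 fell. Slamf1, a marker of long-term stem cells that mast cells also carry, was named after its values were seen and differed by -0.32 with a 95% interval of -1.30 to 0.66.

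Of 27 other blood transcription factors 3 rose and 2 fell (median 0.20), and with the replicate block 6 rose. Erg, an ETS factor of stem cells, measured 7.61, 7.79 and 7.38 with wild type, 10.10, 9.63 and 9.68 with R396Q and 9.19, 9.25 and 9.19 with the empty vector. Its 3 groups did not overlap and R396Q was the highest. Erg rose by 2.21 (SE 0.15, 4.62-fold, adjusted p = 0.000679), and Hhex, a homeobox factor, by 0.41 (SE 0.04, adjusted p = 0.00167), both with calls kept for each array left out. Fli1, a close ETS relative of Erg, fell by 0.31 (SE 0.05, adjusted p = 0.0223), a call lost without wild type array 1 or 3 or any 1 R396Q array. The 2 falls, Fli1 and Id2, became 1 without wild type array 1 or 3 or R396Q array 2 or 3, and 0 without R396Q array 1. Runx1, named after its values were seen, was close in both forms (12.25, 12.33 and 11.78 against 12.14, 12.20 and 11.81), with a difference of -0.07 and a 95% interval of -0.48 to 0.34.

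**Figure D4:**
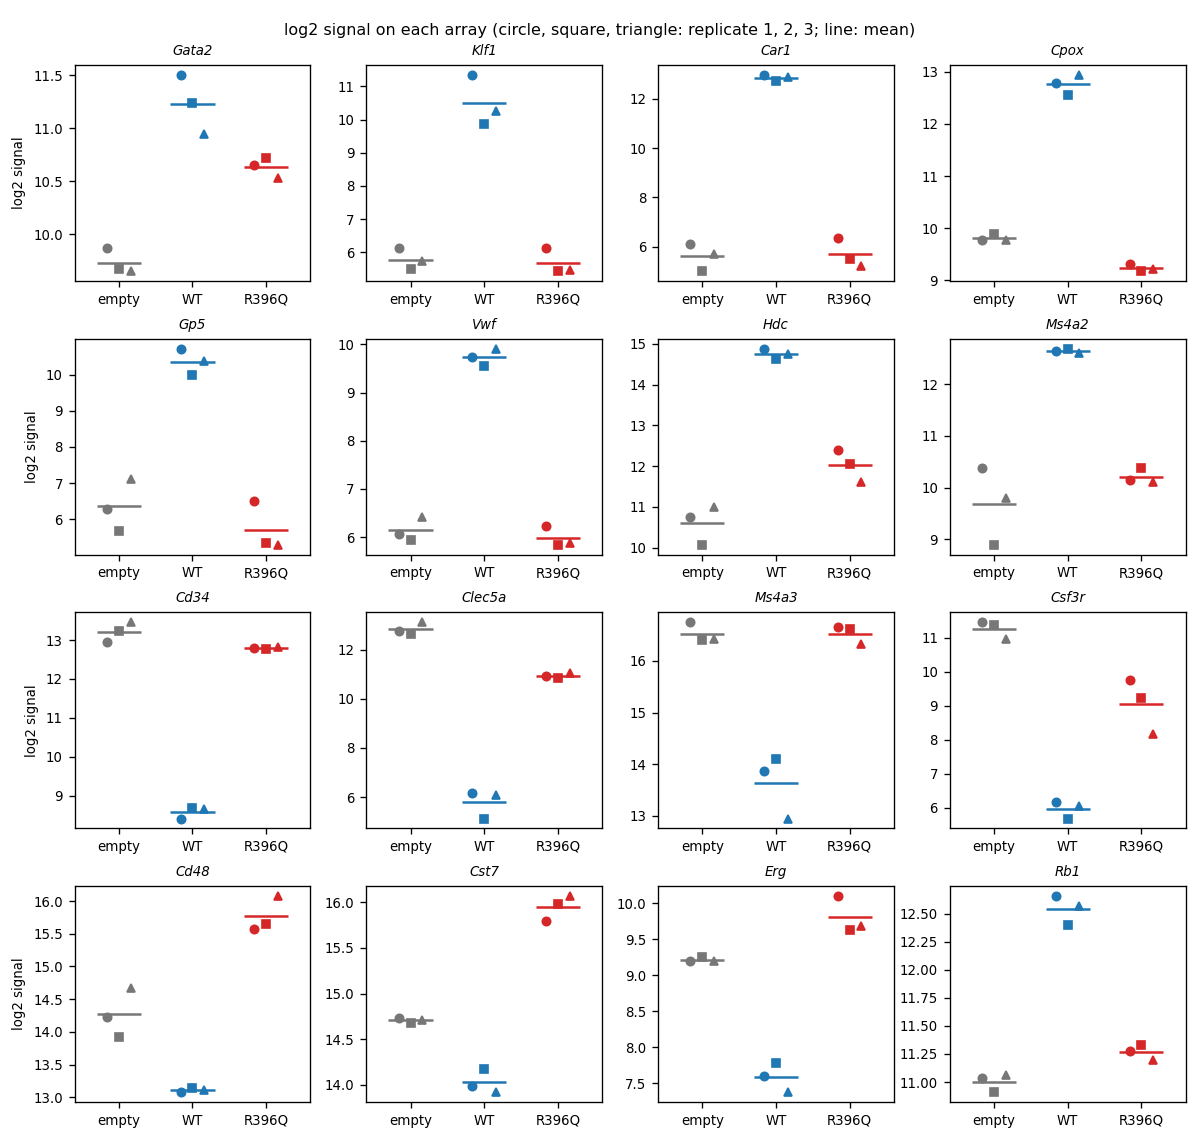
log2 signal of 16 genes on each of the 9 arrays (grey, empty vector; blue, GATA2 wild type; red, GATA2 R396Q; markers give the replicate number and lines the group mean; each panel has its own y axis). Klf1, Car1, Gp5 and Vwf with R396Q sit at the empty vector level, Gata2, Hdc, Clec5a and Csf3r sit between the other groups, and Cd48, Cst7 and Erg sit above both.

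Of 26 cytokine receptors 5 rose and 2 fell (median 0.44). Besides Kit, Csf3r and Epor, Tgfbr1, a TGF-beta receptor, measured 8.90, 8.64 and 8.73 with wild type, 9.30, 9.45 and 9.64 with R396Q and 8.93, 9.0 and 8.96 with the empty vector. It rose by 0.71 (SE 0.10, adjusted p = 0.00902), with R396Q above both other groups, and kept its call with each array left out. Tnfrsf1a, a TNF receptor, measured 6.83, 6.64 and 6.25 with wild type and 8.22, 7.81 and 8.30 with R396Q, and rose by 1.54 (SE 0.23, adjusted p = 0.0122), a call lost without R396Q array 1. Il6ra, the interleukin 6 receptor, ran against most of the list and was named after its values were seen. It measured 8.20, 7.94 and 7.95 with wild type, 6.79, 6.53 and 7.24 with R396Q and 10.30, 9.67 and 10.10 with the empty vector, so R396Q was the farthest from the baseline. It fell by 1.18 (SE 0.22, adjusted p = 0.0277), a call lost without empty vector array 3, any 1 wild type array, or R396Q array 1 or 2. The 5 rises became 3 without R396Q array 1, and the 2 falls became 1 without those arrays that end the call of Il6ra.

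Of 26 chemokines and their receptors 3 fell and none rose (median 0.00), and with the replicate block 5 fell. Ccl17, a ligand that attracts T cells, fell by 0.88 (SE 0.14, adjusted p = 0.016), a call lost without wild type array 1 or R396Q array 1 or 3. The 3 falls became 1 without empty vector array 1 or R396Q array 2 or 3, and 0 without wild type array 1 or R396Q array 1. Of 25 integrin genes 4 fell and none rose (median -0.09). Itga4, a chain of the receptor for VCAM1, measured 12.42, 11.99 and 11.91 with wild type and 11.18, 10.67 and 10.57 with R396Q, below the empty vector's 11.44, 11.42 and 11.29. It fell by 1.29 (SE 0.19, adjusted p = 0.0115). Itgb7, a partner of that chain in gut homing, fell by 1.62 (SE 0.27, adjusted p = 0.0173), a call lost without wild type array 1 or 3 or R396Q array 2 or 3. With Itga2 and Itga2b, given above, these are the 4 falls. The cluster shared by Itga1 and Pelo is not counted among the 25 and was named after its values were seen. It measured 6.23, 5.62 and 5.72 with wild type and 9.70, 9.92 and 10.34 with R396Q, next to 8.71, 8.23 and 9.16 with the empty vector. It rose by 4.13 (SE 0.29, 17.5-fold, adjusted p = 0.000803), and which of the 2 genes the signal comes from cannot be told.

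Few genes of cell division passed the test. Of 34 S phase genes 3 rose (8.82%, next to 2.67% of all clusters) and none fell (median 0.15). Of 39 genes of G2 and M phase none rose and 1 fell (2.56%, next to 3.08% of all clusters, median 0.00). The blocked counts of rises and falls were 5 and 1, and 3 and 3, next to 7.1% and 5.95% of all clusters. Hells, a chromatin remodeler of replicating cells, measured 10.42, 10.73 and 10.63 with wild type and 11.59, 11.56 and 11.46 with R396Q, next to 11.81, 11.95 and 11.89, and rose by 0.94 (SE 0.08, adjusted p = 0.0018). Ckap2l, a spindle protein, measured 10.95, 11.06 and 10.66 against 9.87, 9.87 and 9.70, and fell by 1.08 (SE 0.16, adjusted p = 0.0115). Both kept their calls with each array left out. The 3 S phase rises became 1 without empty vector array 2, wild type array 2 or any 1 R396Q array. Mki67, the proliferation marker named after its values were seen, differed by -0.26 with a 95% interval of -1.08 to 0.57.

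Some cell cycle inhibitors and p53 target genes passed the test. Of 20 cell cycle inhibitors 4 fell and none rose (median -0.49), and of 23 p53 target genes 7 fell and 1 rose (median -0.57). With the replicate block 6 inhibitors fell and 1 rose, and 12 p53 targets fell and 2 rose. Rb1, the retinoblastoma gene, measured 12.66, 12.40 and 12.57 with wild type and 11.28, 11.33 and 11.20 with R396Q, close to the empty vector's 11.04, 10.91 and 11.06. It fell by 1.27 (SE 0.08, 2.42-fold, adjusted p = 0.000435). Cdkn1a, the p21 inhibitor that is in both lists, measured 15.49, 15.31 and 15.81 against 14.38, 14.64 and 14.66, and fell by 0.98 (SE 0.17, adjusted p = 0.0229), a call lost without wild type array 1 or 3 or any 1 R396Q array.

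Trp53inp1, a p53 target of autophagy and cell death, measured 9.87, 9.49 and 10.08 with wild type and 7.78, 7.40 and 7.91 with R396Q, and fell by 2.12 (SE 0.23, adjusted p = 0.00371). Zmat3, an RNA-binding p53 target, fell by 0.73 (SE 0.09, adjusted p = 0.00625) and Polk, a repair polymerase, by 0.37 (SE 0.04, adjusted p = 0.0046). Xpc, a DNA damage sensor, was the exception. It measured 8.83, 8.77 and 8.81 with wild type, 10.03, 9.73 and 10.08 with R396Q and 9.36, 9.55 and 9.37 with the empty vector, a rise of 1.14 (SE 0.10, adjusted p = 0.0017). Rb1 and these 4 p53 targets kept their calls with each array left out. The 7 falls became 3 without wild type array 1 or R396Q array 2 and 4 without R396Q array 1 or 3. The 4 falls of the inhibitors became 2 without wild type array 1 or any 1 empty vector array, and 1 without wild type array 3 or any 1 R396Q array.

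Glycolysis genes moved in both directions: of 22 genes 4 rose and 4 fell (median 0.19), and with the replicate block 7 rose. The hexokinases moved in opposite directions, Hk3 up as given above and Hk1, the red cell and general form, down. Hk1 measured 9.14, 9.17 and 9.34 with wild type and 8.35, 8.00 and 8.32 with R396Q, and fell by 0.99 (SE 0.10, adjusted p = 0.00283). Pklr, the pyruvate kinase of red cells and liver, fell by 0.55 (SE 0.06, adjusted p = 0.00332), and Slc2a3, a glucose carrier, by 2.04 (SE 0.22, adjusted p = 0.00375). Pfkfb3, which makes the activator of phosphofructokinase, measured 7.67, 7.61 and 7.73 with wild type and 9.56, 8.86 and 9.46 with R396Q, above the empty vector's 8.49, 8.55 and 8.49, and rose by 1.63 (SE 0.17, adjusted p = 0.003). These 5 genes kept their calls with each array left out. Of 22 stress response genes 3 rose and 1 fell (median 0.18, and -0.05 without R396Q array 3), and with the replicate block 5 rose and 2 fell. Phgdh, the start of serine synthesis, rose by 1.58 (SE 0.24, adjusted p = 0.013), a call lost without R396Q array 1. Ddit3, a factor of the unfolded protein response, fell by 2.00 (SE 0.34, adjusted p = 0.0182), a call lost without wild type array 1 or 3 or any 1 R396Q array. The 3 rises of the stress list became 0 without R396Q array 1, and 1 without empty vector array 1 or 3 or any 1 wild type array.

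Interferon response genes depended on the block. None of 37 passed limma's test and 1 reached an unadjusted p under 0.05, whereas the replicate block left 8 lower and none higher. Their median change was -0.74, with 32 of 37 below 0, and without wild type array 1 the median was 0.25. Oas3, an antiviral enzyme named after its values were seen, was brightest in replicate 1 of every group. It measured 11.10, 7.00 and 6.55 with wild type, 8.75, 5.48 and 5.39 with R396Q and 9.58, 5.55 and 5.37 with the empty vector. It differed by -1.68 (SE 1.73, adjusted p = 0.721), and with the replicate block the SE was 0.24 and the adjusted p 0.0145. Ifit2, an interferon-induced RNA binder, differed by -0.91, -1.28 and -1.09 within replicate 1, 2 and 3 (adjusted p = 0.482, and 0.0442 with the block).

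The remaining lists held no calls or next to none in limma's test. None of 23 lymphoid genes passed, and 4 reached an unadjusted p under 0.05, next to 3720 of all 21072 clusters. Blocking on the replicate number put 1 higher and 2 lower, next to 7.1% and 5.95% of all clusters. Il2ra, an interleukin 2 receptor chain that mast cells can carry, differed by -0.87 (adjusted p = 0.0711, and 0.00964 with the block). None of 17 cholesterol synthesis genes passed, 0 at an unadjusted p under 0.05 and 0 with the block. None of 13 ribosomal protein genes passed, 2 had an unadjusted p under 0.05 and none passed with the block. Of 18 stromal and endothelial genes none passed, 2 had an unadjusted p under 0.05 and none passed with the block. Postn, a matrix protein gene, stood apart in that list: it measured 11.81, 9.55 and 5.47 with R396Q, 5.55, 4.88 and 4.97 with wild type and 5.47, 4.88 and 5.05 with the empty vector. R396Q arrays 1 and 2 were high and array 3 was not, and its difference of 3.81 did not pass (SE 1.42, adjusted p = 0.218).

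**Figure D5:**
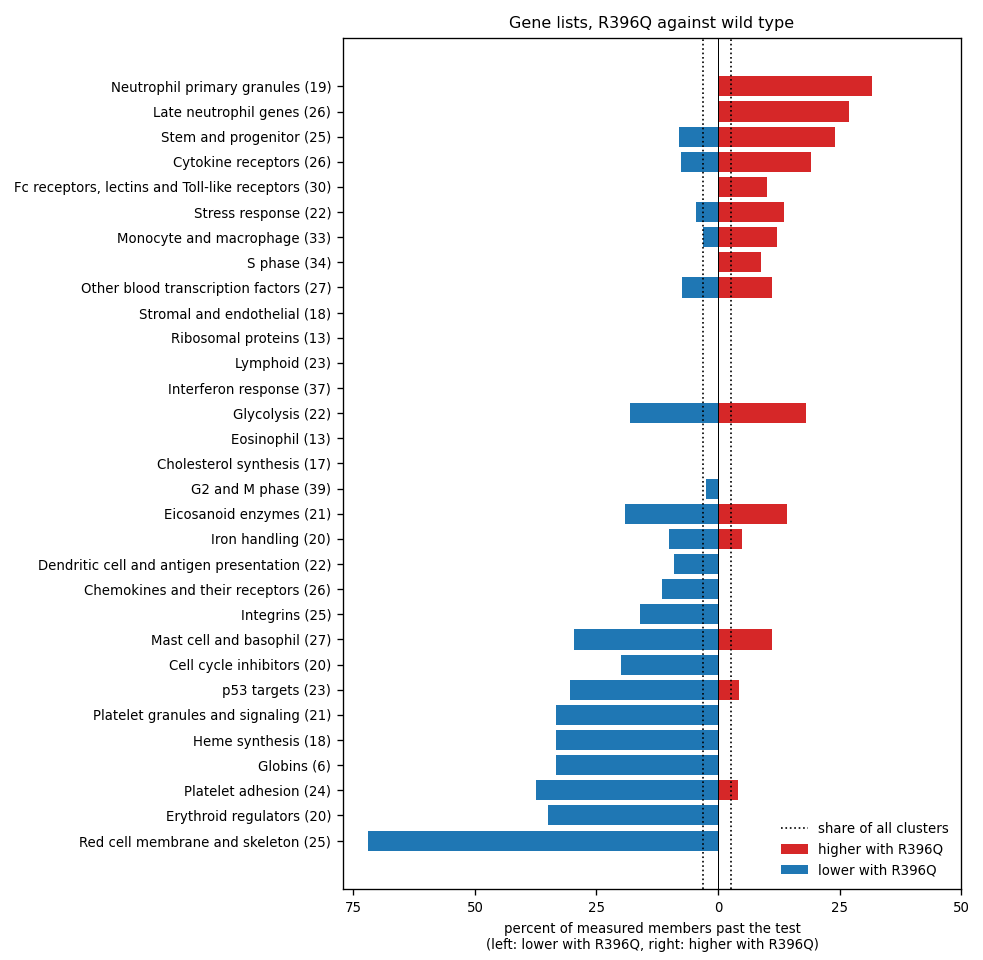
Percent of the measured members of each of the 31 lists that were lower (blue, left) or higher (red, right) with R396Q at an adjusted p under 0.05. Dotted lines give the share of all clusters, 3.08% lower and 2.67% higher, and the number measured stands in brackets. Red cell membrane genes reach 72.0% lower and primary granule genes 31.6% higher.

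Outside the lists, the rule that takes the 15 largest rises and falls named genes of other functions. Adgrl4, an adhesion receptor best known from blood vessels, had the largest rise. It measured 6.25, 5.61 and 4.91 with wild type, 12.33, 11.39 and 10.15 with R396Q and 11.59, 10.93 and 10.40 with the empty vector, a rise of 5.70 (SE 0.62, 52-fold, adjusted p = 0.0036). Laptm4b, a lysosomal membrane protein, measured 6.07, 6.89 and 6.61 with wild type and 11.65, 11.27 and 11.59 with R396Q, and rose by 4.98 (SE 0.22, 31.7-fold, adjusted p = 0.000155). Parp8, a member of the PARP family, rose by 4.88 (SE 0.24, adjusted p = 0.000231), and Gpr65, a proton-sensing receptor, by 4.70 (SE 0.33, adjusted p = 0.000821). For these 4 genes the R396Q mean lay within 1.5 log2 units of the empty vector mean, and all 4 calls held with each array left out.

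Other large rises went beyond both groups. Runx1t1, a corepressor known from its fusion with RUNX1 in leukemia, measured 5.25, 4.97 and 4.85 with wild type, 7.93, 8.22 and 9.08 with R396Q and 4.75, 4.91 and 5.00 with the empty vector. It rose by 3.39 over wild type (SE 0.28, 10.5-fold, adjusted p = 0.00151) and by 3.52 over the empty vector (adjusted p = 0.00394), while wild type differed from the empty vector by 0.14 (adjusted p = 0.834). Dnase2b, an acid nuclease, measured 6.04, 6.02 and 6.48 with wild type, 8.80, 9.67 and 11.07 with R396Q and 5.34, 5.04 and 5.59 with the empty vector, a rise of 3.67 over wild type (SE 0.53, 12.7-fold, adjusted p = 0.0104) and of 4.53 over the empty vector (adjusted p = 0.0153). Both were high on all 3 R396Q arrays and on no other array, and both kept their calls with each array left out.

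Among the large falls, Ces2g, a carboxylesterase, measured 13.61, 13.73 and 14.15 with wild type and 7.53, 7.36 and 6.77 with R396Q, near the empty vector's 7.75, 7.61 and 7.69. It fell by 6.61 (SE 0.22, 97.8-fold, adjusted p = 5.91e-05). Il1a, interleukin 1 alpha, measured 9.11, 11.34 and 10.51 against 5.03, 5.62 and 4.86, and fell by 5.15 (SE 0.55, 35.6-fold, adjusted p = 0.00337). Slc38a5, a glutamine carrier, fell by 4.94 (SE 0.69, adjusted p = 0.0094), Tspan33, a tetraspanin of red cell precursors, by 4.61 (SE 0.37, adjusted p = 0.00132), and Myo1d, an unconventional myosin, by 4.53 (SE 0.30, adjusted p = 0.000679). The R396Q means of all 5 lay within 1 log2 unit of the empty vector means, and kept their calls with each array left out.

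By gene family, solute carriers fell more often than they rose: of 362 Slc genes 21 fell and 4 rose, next to 3.08% and 2.67% of all clusters. Under the block 34 fell and 23 rose, next to 5.95% and 7.1% of all clusters. Without R396Q array 1 the counts were 13 and 1. Of 348 Zfp genes, mostly zinc finger proteins, 7 rose and 4 fell, below the shares of all clusters, and with the block 25 rose, near the share of all clusters, and 10 fell. Of 68 Gpr genes, orphan receptors in the main, 4 rose (5.88%, next to 2.67% of all clusters) and none fell. With the block 6 rose and 2 fell, next to 7.1% and 5.95% of all clusters. Members of the proteasome (Psm, 49 genes), of the mitochondrial ribosome (Mrp, 79 genes) and of complex I (Nduf, 42 genes) had no calls in limma's test. There 2, 12 and 5 had an unadjusted p under 0.05, next to 3720 of all 21072 clusters. Under the block 1 Psm gene was higher, 3 Mrp genes were higher and 2 lower, and no Nduf gene was called.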

How the data were processed

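The authors deposited 1 table of log2 signal for 21072 transcript clusters on 9 arrays. Per the submitters' processing notes, its values come from RMA, run with Affymetrix Expression Console. The labels name Mouse Exon 1.0 ST arrays, while the cluster names are of a later whole-transcript array type. Genome build and annotation: not given in the sources used here. As the table holds no detection calls, no cluster could be called absent, and arrays have no read depth: their number, 3 per group, limits the precision.

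The deposited log2 values were used as given. limma 3.58.1 in R 4.3.3 fitted 1 mean per group over all 9 arrays (6 residual degrees of freedom), and the contrast was R396Q minus wild type, two-sided, adjusted by Benjamini-Hochberg over all clusters with a threshold of 0.05. The script was tested on simulated data. A fold is 2 to the power of the log2 difference. The platform table paired 18992 clusters with 1 symbol, 1390 with several and 690 with none, and 18236 gene IDs matched RefSeq, which updated 418 symbols. For a symbol with several clusters, that with the highest mean was used. Promoters came from the RefSeq table of GRCm38.p6.

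The 31 lists, the other members and the rules were chosen with earlier results of these data known. Of 813 list entries 722 were measured, 37 lay in clusters shared by several genes and 54 had no cluster. Named are Gata2, the 15 largest rises and the 15 largest falls among called clusters with 1 studied symbol and arrays that do not overlap, and per list those called members with the smallest p, at most 5 (up to 2 members, as values, where fewer than 2 were called). Of the 124 genes so named, 110 were called, and a part is printed. Genes outside the rule are marked as named after their values were seen.

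Groups share replicate numbers in the titles. Deviations from the group means correlated at 0.45 to 0.69 in the 9 same-numbered pairs, and at 0.48 to 0.69 between wild type and R396Q, against -0.54 to -0.09 in the 6 wild type and R396Q pairs of different number. Because group means were subtracted, positive values in the same-numbered pairs push the other pairs negative, so the latter add no separate evidence. By the same-numbered values the numbers pair the arrays, although the labels do not say what equal numbers share. The value with the replicate block stands beside a result wherever it changes a call or moves a count by over 1.5 times. Alternatives were the replicate block, only the 6 arrays compared, trend and robust variance, array weights, other scalings, filters on dim or tied clusters, 1 cluster per symbol, each array left out in turn, and the promoter window without the 50 bases after the start.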

Additional observations from a re-analysis of the deposited data

How the results depend on the processing

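No gene named by the rule changed direction under any alternative run. The count of 1211 called clusters (563 higher, 648 lower) rose to 2750 (1497 and 1253) with the replicate block and fell to 772 (384 and 388) with only the 6 arrays compared, where the empty vector arrays no longer add to the estimate of the spread. Leaving out 1 array gave 650 to 1153 calls, 295 to 566 higher and 348 to 616 lower, and the losses beyond 1.5 times came without R396Q array 1 (650), 2 (702) or 3 (788), and for the higher calls also without wild type array 1 (359). Under the other settings, from 1 cluster per symbol (1146) to array weights (1506), the count stayed within 1.5 times. Subtracting each array's median, which moved the median of all clusters by 0.05, gave 830 higher and 660 lower calls, and quantile normalization 570 and 736. Of the 110 named genes called, 65 kept their call under every alternative and 70 with each array left out, and 29 lost it with only the 6 arrays. The block ended no call among the named genes and added 5, and apart from the values given beside the results it changed no other call of a named gene. With the promoter window ending at the start, the share of CACCC among genes that fell was 60.9%, next to 60.3% among genes that rose and 55.8% of all promoters. Values are signal levels with no detection calls, so changes near the lower quartile of the arrays are uncertain in size.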
